A study of Mus musculus with 11 samples.

Results

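The unfolded protein response genes described here are 33 of the 19938 genes that had a probe set with exactly 1 gene symbol on the array, an Affymetrix mouse whole-transcript array. They were chosen by name as 14 endoplasmic reticulum (ER) chaperones and foldases, 8 genes of ER-associated degradation (ERAD) and translocation, 3 stress sensors with the transcription factor gene Xbp1, and 7 genes of the ATF4/CHOP arm. Where a gene had several probe sets, which was so for 3 members, the one with the highest mean over the 11 arrays was used. All 33 genes were measured and none was filtered out. The RNA came from whole liver of male C57/BL6 mice on standard chow, aged 8 to 9 weeks. Wild-type livers (WT, n = 3) were compared with NemoΔhepa livers, in which a loxP-flanked Nemo gene is deleted in hepatocytes (Nemo KO, n = 3). The other two genotypes carry the same hepatocyte deletion on a constitutive knockout background, TRAIL-/- (Nemo/TRAIL dKO, n = 2) or TNFR1-/- (Nemo/TNFR1 dKO, n = 3), so that TRAIL or TNFR1 is missing from all cells. All 3 Nemo-deficient genotypes thus share the hepatocyte deletion, no group lacks TRAIL or TNFR1 alone, and the sources used here do not name the promoter that drives Cre. Nemo regulates the IκB kinase complex, which activates NF-κB, TRAIL is a ligand of death receptors, and TNFR1 is the main receptor of tumour necrosis factor. The comparisons ask how the transcripts of the response stand after loss of Nemo in hepatocytes, and whether loss of TRAIL or TNFR1 in addition moves them.

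The unfolded protein response adjusts the folding capacity of the ER to its load, which is large in hepatocytes because they secrete most plasma proteins. Its sensors are IRE1 (Ern1), which splices the mRNA of Xbp1, ATF6, which is cut in the Golgi to release a transcription factor, and PERK (Eif2ak3), which phosphorylates eIF2α. Spliced XBP1 and cut ATF6 raise transcription of chaperones and ERAD genes, whereas phosphorylated eIF2α lowers general translation and favours translation of ATF4, whose targets include the gene of CHOP (Ddit3). A probe set reads the transcript of a gene as a whole, so splicing of Xbp1, cutting of ATF6 and phosphorylation of eIF2α were not measured here.

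The roles also differ in their promoters, and the motifs are shown because they are the letters through which these arms are known to act. RefSeq windows on GRCm38.p6, from 250 bases before to 50 after the start of transcription, were found for 30 of the 33 members. The ER stress response element, CCAAT and CCACG with 9 bases between them, was searched on both strands. It was present in 7 of 12 chaperone genes, 2 of 8 ERAD genes, 0 of 3 sensor genes with Xbp1 and 0 of 7 genes of the ATF4/CHOP arm, against 0.119% of all 32851 promoter windows. The sites follow, read on the strand that carries the motif, with the fixed letters in capitals.
Hspa5: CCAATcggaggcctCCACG
Hsp90b1, far site: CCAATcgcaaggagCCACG
Hsp90b1, near site: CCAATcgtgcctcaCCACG
Calr: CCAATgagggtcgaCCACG
Canx: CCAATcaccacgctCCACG
Pdia6: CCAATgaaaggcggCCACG
Dnajc3: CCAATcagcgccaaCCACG
Creld2: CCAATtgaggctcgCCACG
Syvn1: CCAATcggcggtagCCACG
Derl3: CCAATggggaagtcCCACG
The near site of Hsp90b1 and those of Calr, Creld2 and Derl3 lie on the opposite strand to the gene.

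A related element, ATTGGNCCACG, was found in Dnajb11 and Herpud1 and in 0.0365% of all windows. The C/EBP-ATF response element TGATGNAA, a type of site through which ATF4 acts, was found in Trib3, Chac1, Asns and Fgf21, which are 4 of the 7 genes of the ATF4/CHOP arm, and in Herpud1. It occurs in 3.97% of all windows. The core of the unfolded protein response element, TGACGTG, was found among the members in Hspa5 alone and in 2.01% of all windows. No 2 of these sites overlapped. These matches describe letters in a window and are no evidence of binding. Windows of Manf, Hyou1 and Atf6 were not analysed here.

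**Figure D1:**
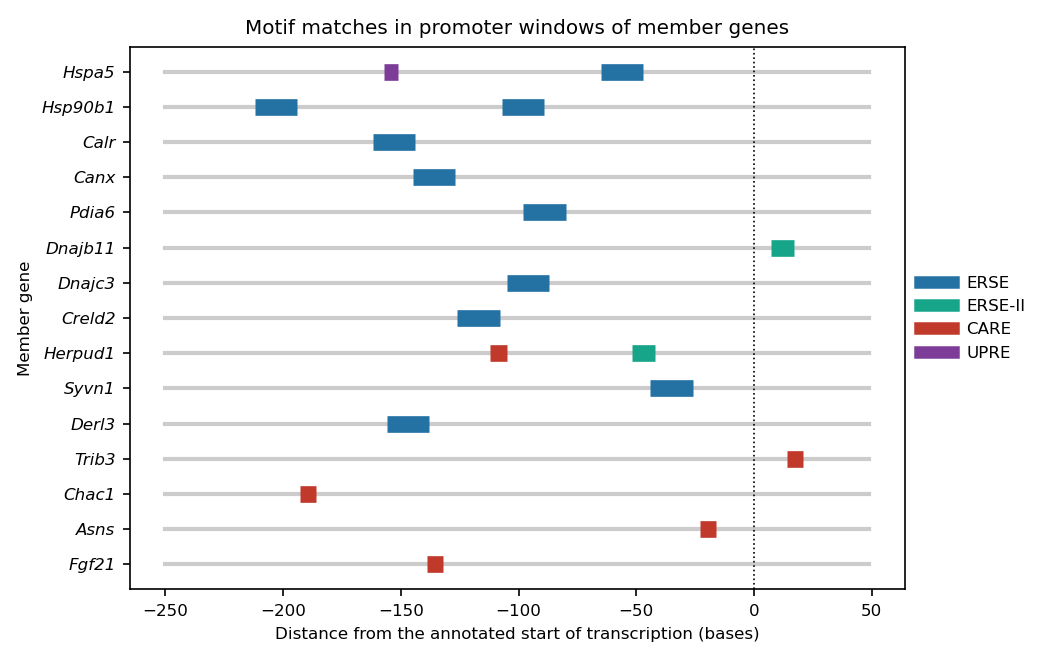
Position of each motif match in the promoter windows of the members that held one, in bases from the start of transcription (horizontal axis, the start at 0), with 1 row per gene and 1 colour per motif. The ER stress response elements lie between 212 and 26 bases before the start, and the C/EBP-ATF elements of the ATF4/CHOP arm lie in rows that hold no ER stress response element.

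The 250 bases before the start are printed for 3 members that the results turn on, the chaperone genes Hspa5 and Creld2 and the ATF4 target Chac1. Motif letters are in capitals. The stretch of Hspa5, chr2:34771840-34772089 on the plus strand, holds TGACGTG and then the ER stress response element 65 to 47 bases before the start.
Hspa5: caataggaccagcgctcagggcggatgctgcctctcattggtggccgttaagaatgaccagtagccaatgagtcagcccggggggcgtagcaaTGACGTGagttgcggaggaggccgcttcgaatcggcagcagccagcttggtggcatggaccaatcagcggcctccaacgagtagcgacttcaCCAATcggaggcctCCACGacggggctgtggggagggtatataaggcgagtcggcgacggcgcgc
The stretch of Creld2, chr15:88819396-88819645 on the plus strand, holds the ER stress response element as its reverse complement.
Creld2: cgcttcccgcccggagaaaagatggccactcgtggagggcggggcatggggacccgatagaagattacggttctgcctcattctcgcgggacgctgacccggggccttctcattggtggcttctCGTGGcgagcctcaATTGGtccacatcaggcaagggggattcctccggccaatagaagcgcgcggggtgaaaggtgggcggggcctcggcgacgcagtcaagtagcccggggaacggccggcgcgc
The stretch of Chac1, chr2:119350992-119351241 on the plus strand, holds the C/EBP-ATF element as its reverse complement.
Chac1: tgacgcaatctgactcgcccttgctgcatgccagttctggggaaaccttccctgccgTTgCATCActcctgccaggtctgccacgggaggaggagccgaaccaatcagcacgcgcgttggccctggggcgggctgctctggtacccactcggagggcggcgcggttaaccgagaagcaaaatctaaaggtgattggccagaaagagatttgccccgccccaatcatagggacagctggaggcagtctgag

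Several properties of the arrays touch every result. WT replicate 3 carried transcripts of pancreatic acinar cells: the mean log2 value of 12 measured markers lay 3.66 above the WT mean in that array and between -2.13 and -1.77 from it in the other 10, so results against WT are also given without it. The mean of 10 monocyte and macrophage markers was 6.82 to 6.86 in WT and 8.12 to 8.65 in the Nemo-deficient livers, and that of 4 cell division genes was 5.53 to 6.19 in WT and 7.67 to 8.67 in the others. The mean of 5 stellate cell markers was 8.27 to 8.43 in WT and 9.26 to 9.67 in the Nemo-deficient livers, where limma called 4 or all 5 of them higher in each genotype. For 4 cholangiocyte markers the mean was 6.48 to 6.78 in WT and 6.71 to 7.31 in the others, with 1 of them called, in Nemo/TRAIL dKO. The part of these cell type markers in the differences from WT was not tested. The mean of 9 hepatocyte markers lay between 12.99 and 13.13 in all 11 arrays. That of 9 plasma and B cell markers lay between 6.18 and 6.46. Hepatocyte means in Nemo KO (at most 13.046) and Nemo/TRAIL dKO (at most 13.077) stayed below the lowest WT array, 13.081. Those of Nemo/TNFR1 dKO overlapped WT, and limma called only F2, lower in Nemo KO. Plasma and B cell means were at least 6.391 in Nemo KO against at most 6.347 in WT, and both double knockouts overlapped WT. Of these markers Prdm1 was called higher in all 3 Nemo-deficient genotypes and Sdc1 in Nemo KO. The part of both lists was not tested either. Ikbkg, which encodes Nemo, was 0.24 ± 0.08 (SE) log2 units below WT in Nemo KO (limma, adjusted p = 0.106), and it fell by 0.41 in Nemo/TRAIL dKO (adjusted p = 0.0239) and by 0.45 in Nemo/TNFR1 dKO (adjusted p = 0.00818). In Nemo/TRAIL dKO Tnfsf10 stood at -0.65 ± 0.19 (SE) from WT (adjusted p = 0.0749). In Nemo/TNFR1 dKO Tnfrsf1a stood at 0.07 ± 0.09 (SE) from WT (adjusted p = 0.67); the sources used here do not say whether the probes lie in the deleted parts, so these values do not check the labels. The array numbers follow genotype, and a code in the array names is the same for WT and Nemo KO and another in each double knockout. The sources used here do not say what that code marks. Any effect of the code cannot be told apart from genotype in comparisons that involve a double knockout. For array order this holds in every comparison. The labels do not state that each array is a separate animal, so the p-values cover only the spread among these arrays, whose small number limits precision.

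Most of the 33 genes did not pass the test in any genotype, and those that did were mostly lower than in WT. A gene was called at a Benjamini-Hochberg adjusted p below 0.05 in limma, fitted on all probe sets. In Nemo KO against WT 1 member rose and 2 fell, in Nemo/TRAIL dKO 0 rose and 2 fell, and in Nemo/TNFR1 dKO 1 rose and 6 fell. These came from 7 genes: Creld2, Sdf2l1, Dnajb11, Sel1l, Derl2, Eif2ak3 and Chac1. Each call can be read against all 35556 probe sets. There the share called was 9.29% in Nemo KO (6.08% higher and 3.21% lower), 7.55% in Nemo/TRAIL dKO (4.91% higher and 2.64% lower) and 9.18% in Nemo/TNFR1 dKO (5.83% higher and 3.35% lower). With both directions together, the 3 of 33 and 2 of 33 members called in Nemo KO and Nemo/TRAIL dKO are near or below the background share. The 7 of 33 called in Nemo/TNFR1 dKO are above it. Counted as lower only, the 2, 2 and 6 members are above the lower share in each genotype, from few calls. Over the 19938 genes 12.6%, 10.2% and 12.1% were called, and 4.08%, 3.34% and 3.89% were called lower. These are whole-liver RNAs, in which fewer cells of a type and less RNA per cell cannot be told apart. Without WT replicate 3 the members called were 0, 2 and 3, against 8.07%, 6.76% and 7.84% of all probe sets. With only the arrays of the 2 groups compared in the fit, 0, 0 and 5 members were called, beside 2790, 1244 and 1831 of all 35556 probe sets.

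The median difference of the 33 members from WT, on the log2 scale, was -0.01 in Nemo KO, and it was -0.16 with TRAIL and -0.18 with TNFR1 deleted in addition. Over the 19938 genes the same medians were -0.05, -0.04 and -0.02. In the same order 19, 24 and 23 of the 33 members lay below WT, beside 60.9%, 60.1% and 55.9% of the 19938 genes. These 3 comparisons share the WT arrays. With 2 or 3 arrays a group, 36.5%, 41.3% and 29.4% of the 19938 genes had no overlap with WT in the same order. Of the 33 members 2 lay fully above and 3 fully below WT in Nemo KO. The counts were 2 and 10 in Nemo/TRAIL dKO, and 2 and 14 in Nemo/TNFR1 dKO.

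**Figure D2:**
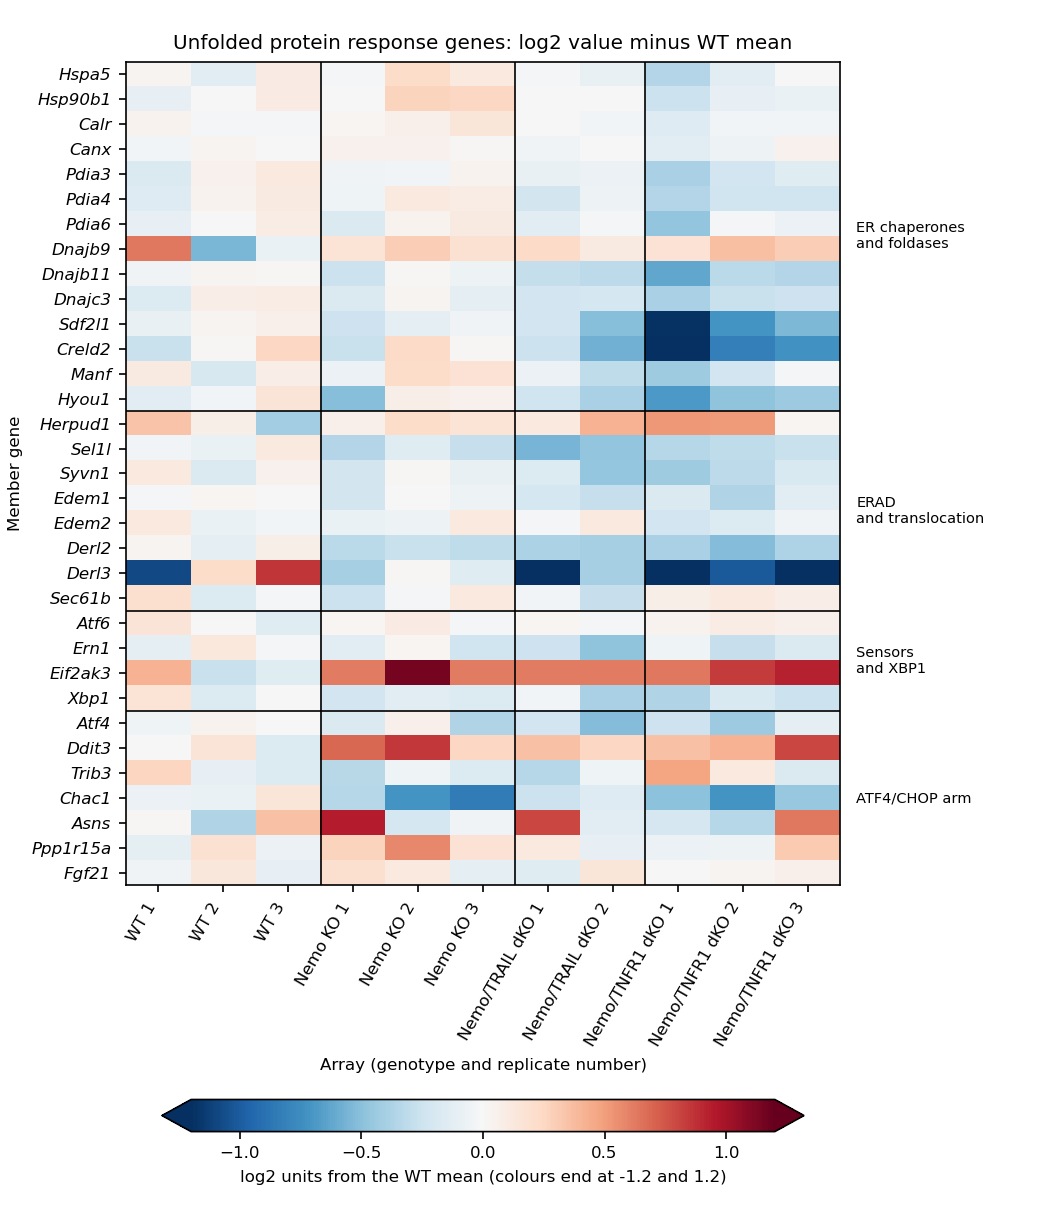
Log2 value of each of the 33 genes (rows, grouped by role) in each of the 11 arrays (columns, grouped by genotype), as its difference from the WT mean, with red above and blue below and colours ending at -1.2 and 1.2. Sdf2l1 and Creld2 are blue in the 3 Nemo/TNFR1 dKO arrays, and Eif2ak3 is red in all 8 Nemo-deficient arrays.

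Of the 3 sensor genes and Xbp1, only Eif2ak3, which encodes PERK, passed the test. Its log2 values were 8.26, 7.58 and 7.70 in WT, 8.47, 8.99 and 8.47 in Nemo KO, 8.47 and 8.47 in both Nemo/TRAIL dKO arrays, and 8.48, 8.68 and 8.77 in those of Nemo/TNFR1 dKO. All 8 Nemo-deficient arrays lay above the highest WT array, replicate 1, which stood apart from the other two WT arrays. Eif2ak3 rose by 0.80 ± 0.19 (SE) in Nemo KO (limma, adjusted p = 0.0308) and by 0.80 ± 0.19 in Nemo/TNFR1 dKO (adjusted p = 0.0308). The call in Nemo KO did not hold without WT replicate 2 or 3 or Nemo KO replicate 2 or 3, with adjusted p up to 0.0963 and 0.0865 without WT replicate 3. That in Nemo/TNFR1 dKO did not hold without WT replicate 2 or 3 or Nemo/TNFR1 dKO replicate 2 or 3, with adjusted p up to 0.105 and 0.0876 without WT replicate 3. With only the 2 groups in the fit the adjusted p were 0.0929 and 0.0698. In Nemo/TRAIL dKO Eif2ak3 was at 0.62 ± 0.21 (SE) and not called (limma, adjusted p = 0.124), and at 0.55 without WT replicate 3 (adjusted p = 0.234). With WT replicate 1 left out it was called there, at 0.83 (adjusted p = 0.0311).

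Xbp1, the transcription factor whose mRNA IRE1 splices, read 11.66, 11.34 and 11.50 in WT, 11.27, 11.36 and 11.34 in Nemo KO, 11.47 and 11.11 in both Nemo/TRAIL dKO arrays, and 11.14, 11.31 and 11.24 in those of Nemo/TNFR1 dKO. The 3 Nemo/TNFR1 dKO arrays lay below all WT arrays, and the other genotypes overlapped WT. Xbp1 differed from WT by -0.18 (limma, adjusted p = 0.346), -0.21 (adjusted p = 0.375) and -0.27 (adjusted p = 0.179) in the same order of genotypes, and by -0.18, -0.21 and -0.27 without WT replicate 3. Ern1, which encodes IRE1α, was at -0.37 ± 0.12 (SE) from WT in Nemo/TRAIL dKO (adjusted p = 0.0966) and nearer to WT in the other two. Atf6 ranged from 9.60 to 9.90 over all 11 arrays, both ends being WT arrays.

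Among the chaperones 3 fell in Nemo/TNFR1 dKO, and none passed the test in Nemo KO or Nemo/TRAIL dKO. In Nemo KO limma called 0 of the 14 (0 also at an unadjusted p below 0.05, against 24.8% of all probe sets), with a median difference of 0.02 and 7 genes on each side of 0. In Nemo/TRAIL dKO 0 were called (2 at an unadjusted p below 0.05, against 21.2% of all probe sets), the median was -0.11 and 13 of 14 lay below WT. In Nemo/TNFR1 dKO 3 fell, against 3.35% of all probe sets called lower, and 7 had an unadjusted p below 0.05, against 23%. The median there was -0.24 and 13 of 14 lay below WT, with Dnajb9 above it. Over the 19938 genes 60.9%, 60.1% and 55.9% lay below WT in the 3 genotypes. Chaperones followed each other across the arrays (median Pearson correlation 0.746), so these counts of genes are not separate observations. Replicate 1 of Nemo/TNFR1 dKO had the lowest chaperone mean, at -0.46 from WT. Without WT replicate 3 the medians were 0.06, -0.06 and -0.19. Then 2 chaperones were called, both in Nemo/TNFR1 dKO, where 7.84% of all probe sets were called.

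Creld2, an ER-resident disulfide isomerase-like protein, had the largest difference among the chaperones. It read 10.38, 10.66 and 10.90 in WT, 10.37, 10.88 and 10.66 in Nemo KO, 10.39 and 10.07 in both Nemo/TRAIL dKO arrays, and 9.44, 9.82 and 9.92 in those of Nemo/TNFR1 dKO. The 3 Nemo/TNFR1 dKO arrays lay below all 8 others, and WT and Nemo KO spanned almost the same range. Creld2 fell by 0.91 ± 0.18 (SE) from WT in Nemo/TNFR1 dKO (limma, adjusted p = 0.0135), a call that held in each of 11 fits that left out 1 array (adjusted p at most 0.0452; 0.0439 without WT replicate 3).

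Sdf2l1, a component of a chaperone complex with ERdj3, showed the same order. Its values were 10.91, 11.03 and 11.06 in WT, 10.75, 10.89 and 10.96 in Nemo KO, 10.77 and 10.48 in both Nemo/TRAIL dKO arrays, and 9.81, 10.28 and 10.46 in those of Nemo/TNFR1 dKO. Here too the 3 Nemo/TNFR1 dKO arrays were below the rest, by a narrow margin to Nemo/TRAIL dKO replicate 2. Against WT Sdf2l1 fell by 0.81 ± 0.15 (SE) (limma, adjusted p = 0.01), and all 11 fits without 1 array kept the call (adjusted p at most 0.0374; 0.0343 without WT replicate 3).

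Dnajb11 encodes ERdj3, the co-chaperone of BiP in that complex. It read 9.67, 9.74 and 9.72 in WT, 9.45, 9.72 and 9.64 in Nemo KO, 9.42 and 9.40 in both Nemo/TRAIL dKO arrays, and 9.09, 9.38 and 9.36 in those of Nemo/TNFR1 dKO. Both double knockouts lay below every WT and Nemo KO array. In Nemo/TNFR1 dKO Dnajb11 fell by 0.43 ± 0.10 (SE) from WT (limma, adjusted p = 0.0216), and the call did not hold without WT replicate 2 (adjusted p = 0.0698) or WT replicate 3 (adjusted p = 0.0548), or with only those 2 groups in the fit (adjusted p = 0.0634).

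Hspa5, which encodes BiP, the main ER chaperone and a partner of all 3 sensors, did not pass the test in any comparison. It read 12.47, 12.31 and 12.54 in WT, 12.42, 12.66 and 12.55 in Nemo KO, 12.42 and 12.35 in both Nemo/TRAIL dKO arrays, and 12.09, 12.31 and 12.44 in those of Nemo/TNFR1 dKO. Every genotype overlapped WT. The difference from WT was 0.11 in Nemo KO (95% interval -0.13 to 0.34; limma, adjusted p = 0.569), -0.06 in Nemo/TRAIL dKO (-0.32 to 0.21; adjusted p = 0.844) and -0.16 in Nemo/TNFR1 dKO (-0.40 to 0.08; adjusted p = 0.416). With WT replicate 3 left out these were 0.16, -0.01 and -0.11. Hyou1, the large chaperone that exchanges the nucleotide of BiP, was at -0.54 ± 0.15 (SE) in Nemo/TNFR1 dKO (adjusted p = 0.0627) with no overlap. Dnajc3, another BiP co-chaperone, was at -0.30 ± 0.09 (adjusted p = 0.0642), and the disulfide isomerase Pdia4 at -0.28 ± 0.09 (adjusted p = 0.0881). The other probe set of Pdia4, with a mean of 8.21 beside 11.85, was at -0.03. The values of Hyou1, Dnajc3 and Pdia4 without WT replicate 3 were -0.46, -0.26 and -0.22. The rest, Hsp90b1, Calr, Canx, Pdia3, Pdia6, Manf and Dnajb9, were not called. Dnajb9, the BiP co-chaperone ERdj4, varied most of the chaperones within WT, from 9.84 to 11.02, a range that held the values of all other arrays.

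**Figure D3:**
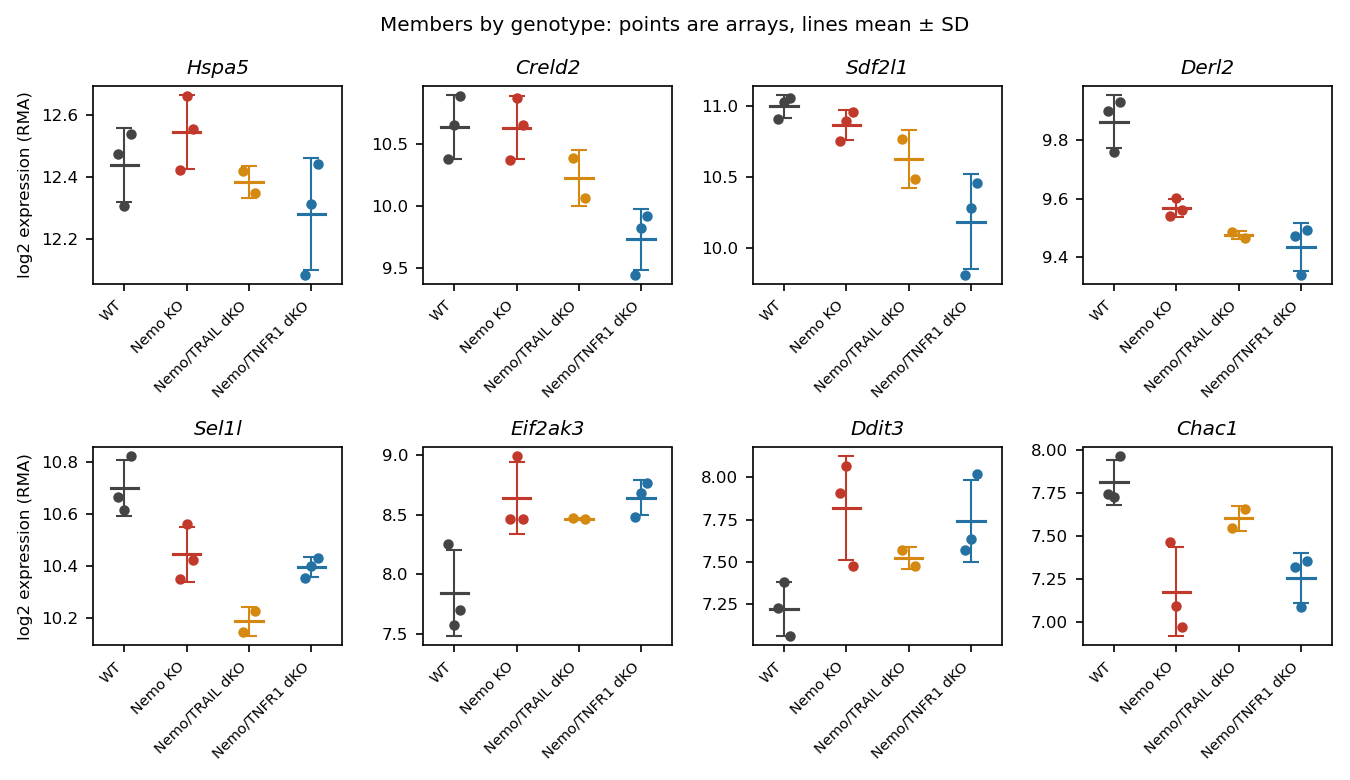
Log2 expression value of each array (points) for 8 members (panels) in the 4 genotypes (horizontal axis), with lines for the mean ± SD; each panel has its own range. Creld2 in Nemo/TNFR1 dKO lies between 9.44 and 9.92, below the 8 other arrays, and Hspa5 overlaps between WT and every other genotype.

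Among the Nemo-deficient genotypes no member was called, so that the lower chaperone values of Nemo/TNFR1 dKO did not pass the test against Nemo KO. In Nemo/TNFR1 dKO against Nemo KO limma called 0 of 33 members and 0.0337% of all probe sets, and 12 members had an unadjusted p below 0.05, against 6.86% of all probe sets. Of those 12 genes 11 were chaperones. All 14 chaperones except Dnajb9 lay lower, with a median of -0.29 beside 0.02 over the 19938 genes, of which 43% lay lower. The count of 11 was 6 without replicate 2 of Nemo KO, 5 without its replicate 3, and 5 without replicate 1 of Nemo/TNFR1 dKO. Creld2 differed by -0.91 (adjusted p = 0.337), Sdf2l1 by -0.68 (adjusted p = 0.414), Pdia4 by -0.33 (adjusted p = 0.496) and Hspa5 by -0.26 (adjusted p = 0.693). The other probe set of Pdia4 differed by 0.03.

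In Nemo/TRAIL dKO against Nemo KO limma called 0 members and 0.00562% of all probe sets, and 2 members had an unadjusted p below 0.05, against 4.04% of probe sets. All 14 chaperones lay lower, with a median of -0.17, and 0 of them had an unadjusted p below 0.05 (6 without Nemo KO replicate 1). Of the 19938 genes 50.3% lay lower. Between both double knockouts limma again called 0 members, against 0.0478% of probe sets, and 4 members had an unadjusted p below 0.05, against 5.03% of probe sets. The chaperones had a median of -0.12 in Nemo/TNFR1 dKO against Nemo/TRAIL dKO, and 13 of 14 lay lower, beside 42.9% of all genes. The difference in effect between the added knockouts was thus not called for any member.

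**Figure D4:**
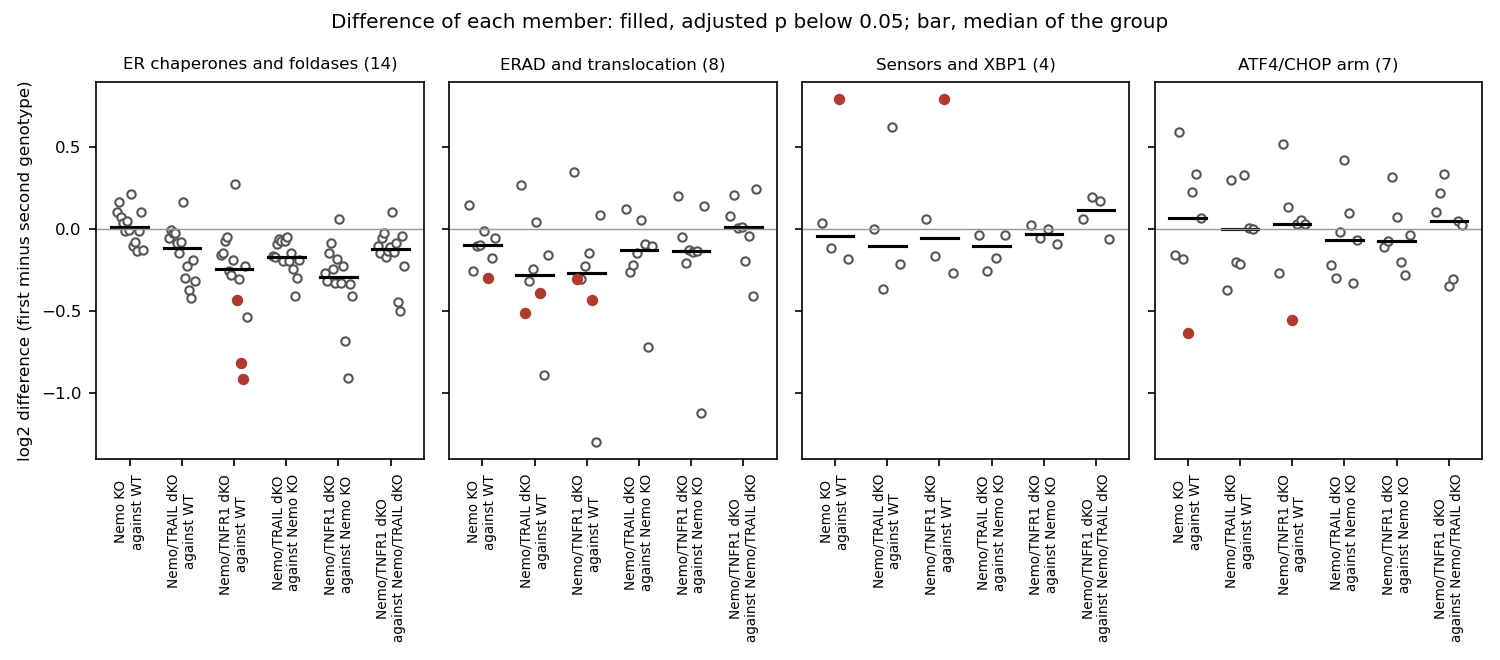
Log2 difference of each member (points) in the 6 comparisons, by role, with the median of the role as a bar (first genotype minus second); filled points have an adjusted p below 0.05 and the grey line marks 0. The chaperone median is 0.02 in Nemo KO against WT and -0.29 in Nemo/TNFR1 dKO against Nemo KO, and the medians of the ATF4/CHOP arm against WT lie between 0.00 and 0.07.

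By array, the mean of the 14 chaperones stood at -0.03, -0.05 and 0.08 from the WT mean in the WT arrays and at -0.11, 0.11 and 0.07 in Nemo KO. It was -0.11 and -0.18 in Nemo/TRAIL dKO and -0.46, -0.23 and -0.18 in Nemo/TNFR1 dKO. Replicate 1 of Nemo/TNFR1 dKO was the lowest array. The 3 Nemo KO arrays lay above the 5 of the double knockouts, narrowly so between Nemo KO replicate 1 at -0.1125 and Nemo/TRAIL dKO replicate 1 at -0.1147. That same Nemo/TNFR1 dKO array also had the lowest mean of the 10 monocyte and macrophage markers among the 8 Nemo-deficient arrays, 1.28 above the WT mean against 1.55 to 1.81 in the other 7. It was also the lowest of the 8 in the 4 cell division genes, 1.88 above the WT mean against 2.30 to 2.88, and in the 4 cholangiocyte markers, 0.04 against 0.21 to 0.64. For the stellate markers it was not the lowest, at 0.94 against 0.91 in Nemo/TRAIL dKO replicate 2. Nor was it for plasma and B cell markers, at 0.054 against 0.05 in Nemo/TNFR1 dKO replicate 2. For the hepatocyte markers it was the highest of the 8, at -0.02 against -0.11 to -0.03 in the other 7. The part of these markers in the chaperone values was not tested.

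**Figure D5:**
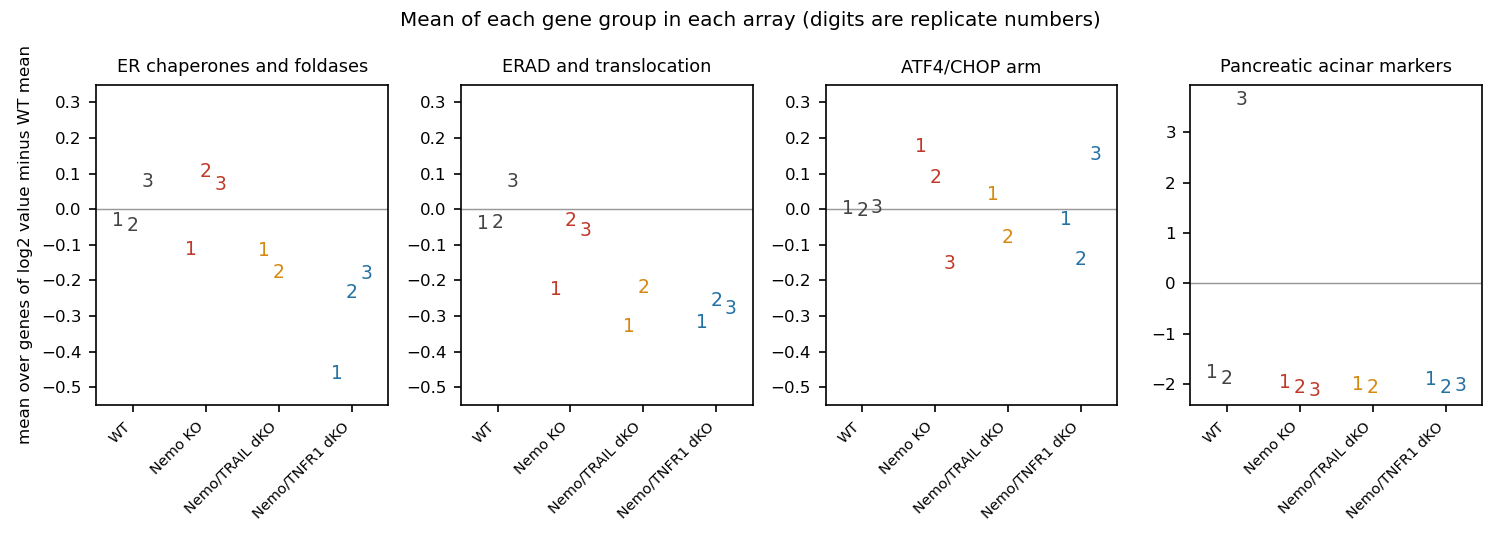
Mean log2 difference from the WT mean for each array (replicate number as a digit), by genotype. Panels show the chaperones, the ERAD genes, the ATF4/CHOP arm and, on its own scale, the pancreatic acinar markers. Sensors with Xbp1 are not shown. The chaperone mean of Nemo/TNFR1 dKO lies between -0.46 and -0.18 and that of Nemo KO between -0.11 and 0.11.

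Among the ERAD genes Derl2 fell in all 3 Nemo-deficient genotypes and Sel1l in both double knockouts. Derl2 encodes a derlin of the channel through which misfolded proteins leave the ER. Its values were 9.90, 9.76 and 9.93 in WT, 9.54, 9.60 and 9.56 in Nemo KO, 9.48 and 9.46 in both Nemo/TRAIL dKO arrays, and 9.47, 9.34 and 9.49 in those of Nemo/TNFR1 dKO. All 8 Nemo-deficient arrays lay below all 3 WT arrays. Derl2 fell by 0.30 ± 0.07 (SE) in Nemo KO (limma, adjusted p = 0.0253), by 0.39 ± 0.08 in Nemo/TRAIL dKO (adjusted p = 0.0145) and by 0.43 ± 0.07 in Nemo/TNFR1 dKO (adjusted p = 0.00449). The last call held in each of 11 fits without 1 array (adjusted p at most 0.02). The call in Nemo KO did not hold without WT replicate 1 or 3 or any 1 of the Nemo KO arrays (adjusted p up to 0.0828; 0.0711 without WT replicate 3), and that in Nemo/TRAIL dKO did not hold without either of its arrays (adjusted p up to 0.0928). With only the 2 groups in the fit these calls were lost, at adjusted p = 0.0587 and 0.0924.

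Sel1l, the adaptor of the ubiquitin ligase HRD1, read 10.67, 10.62 and 10.82 in WT, 10.35, 10.56 and 10.43 in Nemo KO, 10.15 and 10.23 in both Nemo/TRAIL dKO arrays, and 10.36, 10.40 and 10.43 in those of Nemo/TNFR1 dKO. Again every Nemo-deficient array was below every WT array, and both Nemo/TRAIL dKO arrays were the lowest. Sel1l fell by 0.51 ± 0.09 (SE) in Nemo/TRAIL dKO (limma, adjusted p = 0.00768), a call that did not hold without Nemo/TRAIL dKO replicate 1 (adjusted p = 0.0768) or with only those 2 groups in the fit (adjusted p = 0.0599). In Nemo/TNFR1 dKO it fell by 0.31 ± 0.08 (adjusted p = 0.039), and that call held in 2 of the 11 fits without 1 array, those without Nemo KO replicate 1 or 2. The adjusted p reached 0.101 without WT replicate 3 and was 0.0949 with only the 2 groups in the fit.

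Derl3, a derlin known for its induction by XBP1 and its level in secretory cells, varied most of all members in WT. It read 7.34, 8.64 and 9.28 in WT, 8.03, 8.44 and 8.28 in Nemo KO, 7.04 and 8.02 in both Nemo/TRAIL dKO arrays, and 6.86, 7.42 and 7.09 in those of Nemo/TNFR1 dKO. WT replicate 3, the array with acinar transcripts, was the highest, and WT replicate 1 lay within the range of Nemo/TNFR1 dKO. The difference in Nemo/TNFR1 dKO was -1.30 ± 0.44 (SE) from WT (95% interval -2.28 to -0.32; limma, adjusted p = 0.105), the largest of the members. It was -0.87 without WT replicate 3 (adjusted p = 0.243) and -1.84 without WT replicate 1, where it was called (adjusted p = 0.0112). In Nemo/TRAIL dKO it was -0.89 (adjusted p = 0.342), -0.46 without WT replicate 3 (adjusted p = 0.612) and -1.43 without WT replicate 1, where it was called (adjusted p = 0.0444). In Nemo KO the difference was -0.18 (adjusted p = 0.832), and 0.25 without WT replicate 3 (adjusted p = 0.747). The part of the acinar transcripts in it was not tested.

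Herpud1, a membrane protein that gathers the degradation complex, did not pass the test, and its sign in Nemo KO rested on 1 WT array. It read 12.10, 11.83 and 11.34 in WT, 11.81, 11.97 and 11.92 in Nemo KO, 11.87 and 12.18 in both Nemo/TRAIL dKO arrays, and 12.27, 12.26 and 11.78 in those of Nemo/TNFR1 dKO. WT replicate 3 was the lowest array, and the groups overlapped. The differences from WT were 0.15 (limma, adjusted p = 0.678), 0.27 (adjusted p = 0.544) and 0.35 (adjusted p = 0.333), and they were -0.06, 0.06 and 0.14 without WT replicate 3. Syvn1, which encodes HRD1, the mannosidase-like genes Edem1 and Edem2, and the translocon gene Sec61b were not called. Over the 8 genes of the role the median difference from WT was -0.10, -0.28 and -0.27, and -0.07, -0.27 and -0.24 without WT replicate 3.

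In the ATF4/CHOP arm only Chac1 passed the test, and it was lower. The median difference of the 7 genes from WT was 0.07, 0.00 and 0.03 in Nemo KO and the double knockouts, and 0.02, -0.04 and 0.02 without WT replicate 3. Chac1, a glutathione-degrading enzyme and ATF4 target, read 7.74, 7.73 and 7.96 in WT, 7.47, 7.10 and 6.97 in Nemo KO, 7.55 and 7.65 in both Nemo/TRAIL dKO arrays, and 7.32, 7.09 and 7.36 in those of Nemo/TNFR1 dKO. All Nemo-deficient arrays lay below the lowest WT array. Chac1 fell by 0.63 ± 0.13 (SE) in Nemo KO (limma, adjusted p = 0.016) and by 0.55 ± 0.13 in Nemo/TNFR1 dKO (adjusted p = 0.0294). In Nemo/TRAIL dKO it was at -0.21 ± 0.15 and not called (adjusted p = 0.474). The call in Nemo KO did not hold without WT replicate 3 (adjusted p = 0.0519) or Nemo KO replicate 2 or 3 (adjusted p up to 0.0634), or with only the 2 groups in the fit (adjusted p = 0.0512). That in Nemo/TNFR1 dKO did not hold without any 1 WT array or without Nemo/TNFR1 dKO replicate 2 or 3, with adjusted p up to 0.103 and 0.0857 without WT replicate 3.

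Ddit3, the gene of the transcription factor CHOP, read 7.23, 7.38 and 7.06 in WT, 7.91, 8.07 and 7.47 in Nemo KO, 7.57 and 7.48 in both Nemo/TRAIL dKO arrays, and 7.57, 7.64 and 8.02 in those of Nemo/TNFR1 dKO. All 8 Nemo-deficient arrays lay above the 3 WT arrays, yet no difference was called. By genotype such separation from WT was common, in 36.5%, 41.3% and 29.4% of all genes. It was 0.59 ± 0.17 (SE) in Nemo KO (limma, adjusted p = 0.0562), 0.30 ± 0.19 in Nemo/TRAIL dKO (adjusted p = 0.411) and 0.52 ± 0.17 in Nemo/TNFR1 dKO (adjusted p = 0.0904). In Nemo KO it passed without Nemo KO replicate 3 (adjusted p = 0.0232), without Nemo/TNFR1 dKO replicate 3 (adjusted p = 0.043) and with probe sets under the 25th percentile of mean signal left out (adjusted p = 0.0419). In Nemo/TNFR1 dKO Ddit3 passed without Nemo KO replicate 3 (adjusted p = 0.0484). The differences of Ddit3 without WT replicate 3 were 0.51, 0.22 and 0.44.

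Atf4, the transcription factor gene itself, read 7.89, 7.98 and 7.95 in WT, 7.77, 8.01 and 7.58 in Nemo KO, 7.72 and 7.42 in both Nemo/TRAIL dKO arrays, and 7.69, 7.50 and 7.84 in those of Nemo/TNFR1 dKO. Both double knockouts lay below the WT arrays and Nemo KO overlapped them. The differences from WT were -0.16 (limma, adjusted p = 0.481), -0.37 (adjusted p = 0.163) and -0.27 (adjusted p = 0.251), and -0.15, -0.37 and -0.26 without WT replicate 3.

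Trib3, a pseudokinase gene that CHOP and ATF4 induce, read 7.19, 6.83 and 6.76 in WT, 6.59, 6.88 and 6.77 in Nemo KO, 6.58 and 6.88 in both Nemo/TRAIL dKO arrays, and 7.40, 7.05 and 6.76 in those of Nemo/TNFR1 dKO. The groups overlapped, and the differences from WT were -0.18 (limma, adjusted p = 0.557), -0.20 (adjusted p = 0.625) and 0.14 (adjusted p = 0.684). Those of Trib3 without WT replicate 3 were -0.26, -0.28 and 0.06. Fgf21, the gene of a liver hormone that ATF4 induces, read 5.64, 5.82 and 5.59 in WT, 5.87, 5.80 and 5.58 in Nemo KO, 5.54 and 5.83 in both Nemo/TRAIL dKO arrays, and 5.67, 5.72 and 5.75 in those of Nemo/TNFR1 dKO. All 11 arrays lay within a narrow band and the groups overlapped. Fgf21 differed from WT by 0.07 (limma, adjusted p = 0.726), 0.00 (adjusted p = 0.995) and 0.03 (adjusted p = 0.898), and by 0.02, -0.04 and -0.02 without WT replicate 3. Asns, which encodes asparagine synthetase, and Ppp1r15a, which encodes the eIF2α phosphatase subunit GADD34, were not called, and Asns ranged from 5.94 to 7.24 with its extremes in WT and Nemo KO.

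Other genes of these pathways were taken from lists. Of 51 further ER folding, secretion and ERAD genes measured, 2 rose and 3 fell in Nemo KO, 2 rose and 2 fell in Nemo/TRAIL dKO, and 1 rose and 5 fell in Nemo/TNFR1 dKO. Of all probe sets 9.29%, 7.55% and 9.18% were called in the same order of genotypes. With both directions together these counts are near that background. Counted as lower only, the 3, 2 and 5 genes are above the share called lower (3.21%, 2.64% and 3.35%), from few calls. Counted as higher only, the 2, 2 and 1 genes are below the share called higher (6.08%, 4.91% and 5.83%). The median differences of the 51 genes from WT were -0.01, -0.06 and -0.07, beside -0.05, -0.04 and -0.02 over the 19938 genes. Without WT replicate 3 the counts were 2 and 1, 2 and 2, and 1 and 3, against 8.07%, 6.76% and 7.84% of all probe sets called. Kdelr3, a receptor that returns ER proteins from the Golgi, rose by 1.08 ± 0.17 (SE), 0.97 ± 0.19 and 1.06 ± 0.17 (limma, adjusted p = 0.00457, 0.015 and 0.00495). Casp12, an ER-associated caspase gene, rose by 1.51 ± 0.26 in Nemo KO (adjusted p = 0.00608) and 1.43 ± 0.29 in Nemo/TRAIL dKO (adjusted p = 0.0155), and was at 0.91 ± 0.26 in Nemo/TNFR1 dKO (adjusted p = 0.0572). Ero1b, an ER oxidase, fell by 0.46 ± 0.12, 0.90 ± 0.13 and 0.68 ± 0.12 (adjusted p = 0.0431, 0.00447 and 0.0075). The ERAD lectin gene Os9 fell by 0.26 ± 0.07, 0.38 ± 0.07 and 0.39 ± 0.07 (adjusted p = 0.0391, 0.013 and 0.00546). Of these calls for Kdelr3, Casp12, Ero1b and Os9, that of Ero1b in Nemo KO did not hold without WT replicate 3 (-0.32, adjusted p = 0.0811).

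Of 40 further ATF4 targets and integrated stress response genes, 5 rose and 2 fell in Nemo KO, and 5 rose and 1 fell in each double knockout. Of all probe sets 6.08%, 4.91% and 5.83% were called higher, and 3.21%, 2.64% and 3.35% lower. The medians from WT were 0.09, 0.12 and 0.10. Without WT replicate 3 the counts were 6 and 1, 5 and 1, and 6 and 1, against 8.07%, 6.76% and 7.84% of all probe sets called. Atf3, a transcription factor gene induced by several stress pathways, rose by 2.07 ± 0.31 (SE), 1.38 ± 0.34 and 1.85 ± 0.31 (limma, adjusted p = 0.00319, 0.0396 and 0.00531). Ddit4, an inhibitor of mTORC1 signalling, rose by 1.05 ± 0.21, 1.18 ± 0.23 and 0.96 ± 0.21 (adjusted p = 0.0133, 0.0149 and 0.0208). Nfe2l2, the gene of the antioxidant regulator NRF2, rose by 0.94 ± 0.07, 0.82 ± 0.07 and 0.96 ± 0.07 (adjusted p = 0.000263, 0.00069 and 0.000121). Tnfrsf10b, a death receptor gene that p53 also induces, rose by 1.62, 1.36 and 1.61. Without WT replicate 3 the calls of Atf3 in Nemo/TRAIL dKO (1.35, adjusted p = 0.0857) and of Ddit4 in Nemo/TNFR1 dKO (0.94, adjusted p = 0.0561) did not hold, and the other calls of these 4 genes held. These genes answer to other pathways besides ATF4.

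How the members followed each other across the 11 arrays differed by role. The median Pearson correlation was 0.746 over the 91 pairs of chaperones, from -0.539 to 0.951, and 0.0113 over the 21 pairs within the ATF4/CHOP arm. Between both roles the median was 0.0754. These values are descriptions over 11 arrays that share genotypes and, in WT replicate 3, acinar transcripts. Among all genes the 5 most like Hspa5 over the arrays were Manf (r = 0.945), Atp2a2 (0.934), Tbc1d8b (0.926), Nucb2 (0.91) and Serp1 (0.89), of which Manf is a member. Those most like Ddit3 were Dusp10 (0.961), Jun (0.939), Gadd45b (0.939), Vegfc (0.937) and Tgfb2 (0.929), and none of these is a member.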

How the data were processed

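Liver RNA of 11 samples was measured on Affymetrix mouse whole-transcript arrays. The values are log2 expression values deposited by the authors, made with RMA per the submitters' processing notes; the sources used here do not give its version, and nothing further was normalized. Of 35556 probe sets 21789 had 1 gene symbol (19938 genes), 1621 had several and 12146 had none. Groups come from the labels. With R 4.3.3 and limma 3.58.1, all arrays and probe sets entered 1 linear model with a mean for each genotype and default empirical Bayes (residual degrees of freedom 7, prior 2.51), and tested on simulated data. The p-values are two-sided, adjusted by Benjamini-Hochberg over all probe sets within each of 6 comparisons, and called below 0.05 with no fold threshold. The members and lists were chosen with earlier results of these data known. Named in full were members called in any comparison and Hspa5, Xbp1, Atf4, Ddit3, Trib3, Fgf21, Herpud1 and Derl3. Of each list of other pathway genes the counts were taken, and among the called genes with the largest differences (up to 4 per comparison) examples are given. For Hspa5 and Ddit3 the 5 genes of highest correlation were named. Promoter windows are from RefSeq (GRCm38.p6), and motifs were searched as letters on both strands. Alternatives were other moderation, normalization, filters, thresholds, probe set rules, array weights, only the 2 groups compared, a replicate block, and each array left out.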

Additional observations from a re-analysis of the deposited data

How the results depend on the processing

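The count of members called moved most with the threshold and with the arrays in the fit. Nemo KO against WT had 3 members called, 0 with only those 2 groups in the fit, 0 at an adjusted p below 0.01, 5 below 0.1, and 0 to 4 with 1 array left out. Nemo/TRAIL dKO against WT had 2 called, 0 with only those 2 groups in the fit, 1 below 0.01, and 0 to 4 with 1 array left out. Nemo/TNFR1 dKO against WT had 7 called, 1 below 0.01, 11 below 0.1, and 3 (without WT replicate 2 or 3) to 10 (without WT replicate 1) with 1 array left out. With 1 array left out the median of the ATF4/CHOP arm ranged from -0.10 to 0.15 in Nemo KO against WT, from -0.14 to 0.0706 in Nemo/TRAIL dKO against WT and, for Nemo/TRAIL dKO set against Nemo KO, from -0.34 to -0.065. The ERAD median in Nemo/TRAIL dKO against WT ranged from -0.34 to -0.19. The cause was not tested. No value changed sign while called. The count of chaperones at an unadjusted p below 0.05 was added after the data were seen.

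Same-numbered arrays of different genotypes did not deviate together (15 pairs, r from -0.117 to 0.0435). This gave no sign of pairing by number, but so few arrays a group cannot exclude it. With the number as a replicate block 2, 2 and 8 members were called against WT, and 0 in the other comparisons. The calls of Eif2ak3 were then lost in Nemo KO (limma, adjusted p = 0.0659) and Nemo/TNFR1 dKO (adjusted p = 0.0657). In Nemo/TNFR1 dKO those of Sel1l (adjusted p = 0.0566) and Chac1 (adjusted p = 0.0536) were also lost, while Derl3 was called (adjusted p = 0.0433).

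Over all probe sets, 3304, 2684 and 3263 were called against WT, 1416, 1018 and 1411 below 0.01, and 5121, 4060 and 4837 below 0.1. With only the 2 groups in the fit the counts were 2790, 1244 and 1831. With 1 array left out they ranged from 1933 to 3549, from 823 to 2884 and from 1926 to 3342. With 2 or 3 arrays a group, the spread between arrays limits which differences of members such as Dnajb9 and Derl3 pass the test.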
